A study of Mus musculus with 3 samples.

Results

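The miRNAs described here are those of heart and skeletal muscle, 9 of the 1881 mouse miRNAs on the array, followed in serum RNA from 3 extraction methods. They were chosen by name: mmu-miR-1a-3p, both arms of miR-133a (mmu-miR-133a-3p and mmu-miR-133a-5p), mmu-miR-133b-3p, mmu-miR-206-3p, mmu-miR-208a-3p, mmu-miR-208b-3p, mmu-miR-499-5p and mmu-miR-378a-3p. The prefix mmu, for mouse, is left out below. All serum came from 8-week-old male C57BL/6NJcl mice and was separated from whole blood by a spin of 3 min at 6000 G. Each extract took 200 µL of serum, and 1.8 ng of its RNA was labelled with Cy3 and read on 1 array. The miRNeasy serum/plasma advanced kit and the mirVana PARIS kit were used as their makers describe. For the exoRNeasy midi kit, 700 µL of QIAzol, which contains phenol, was first added to the serum, and the kit was given the watery phase, so that this extract stood for the total RNA of serum. The labels name no treatment or mutation, and do not say whether the extracts shared a serum, pooled animals or came from separate mice.

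These miRNAs are often called myomiRs. The primary transcripts of miR-1 also carry miR-133a, and miR-206 and miR-133b come from a separate shared transcript active in skeletal muscle. The heart miRNA miR-208a sits inside the gene of alpha myosin heavy chain, while its relatives miR-208b and miR-499 sit inside slow-type myosin genes and help to set the slow-fibre program. miR-1 and miR-133 act in muscle differentiation and proliferation, and miR-378a, found in many tissues, acts in mitochondrial metabolism. Damaged muscle releases such miRNAs into blood, so several are used as serum markers of muscle and heart injury.

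Mature sequences from RefSeq (GRCm38.p6) matched 5 of the 9 by name. They are shown 5′ to 3′ with the seed, bases 2 to 8, in capitals, to set the one that was detected in serum beside its transcript partner and the heart and slow-fibre miRNAs that were not.
miR-133b-3p: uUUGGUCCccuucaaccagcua
miR-206-3p: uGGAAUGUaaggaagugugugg
miR-208a-3p: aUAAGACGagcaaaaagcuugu
miR-208b-3p: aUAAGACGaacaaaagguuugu
miR-499-5p: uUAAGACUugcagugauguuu
miR-133b-3p lies at chr1:20682834-20682855 on the plus strand and miR-206-3p upstream of it at chr1:20679055-20679076, both inside the noncoding RNA gene Lincmd1. miR-208a-3p lies at chr14:54949072-54949093 on the minus strand inside Myh6, and miR-208b-3p at chr14:54975710-54975731 on the same strand inside Myh7, which Gm31251 also overlaps there. miR-499-5p lies at chr2:155622893-155622913 on the plus strand inside Myh7b. miR-208a-3p and miR-208b-3p were identical at 7 of 7 seed bases and at 19 of 22 bases in all, differing at G10A, A16G and C18U, counted from 1 at the 5′ end with the base of miR-208a-3p first. miR-499-5p matched miR-208a-3p at 6 of 7 seed bases, with the difference G8U. miR-1a-3p, miR-133a-3p, miR-133a-5p and miR-378a-3p are named only.

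Each member had 2 probes of 15 spots each. Signals are the scanner software's background-subtracted spot intensities in linear scanner units, without spots flagged as outliers. A probe was taken as detected if the software flagged over 0.5 of its remaining spots as well above background, and a miRNA if any of its probes was. By this rule 134 miRNAs (7.12%) were detected with mirVana PARIS, 83 (4.41%) with exoRNeasy and 71 (3.77%) with miRNeasy advanced. The lowest signals that counted as detected were 8.81, 21.6 and 12.2 in that order. A signal that counted with mirVana PARIS could thus go uncounted with the other kits. Each kit had 1 array, so no difference has a replicate check and none was tested. Errors are standard deviations or standard errors between the spots of a probe; they hold array noise only, with no part from extraction or from mice.

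Of the 9 members, 3 were detected with every kit, namely miR-1a-3p and the 3p arms of miR-133a and miR-133b. miR-378a-3p was detected with mirVana PARIS alone. The skeletal muscle miRNA miR-206-3p, the heart miRNA miR-208a-3p, the slow-fibre miRNAs miR-208b-3p and miR-499-5p, and miR-133a-5p were detected with none. The counts of 4, 3 and 3 of 9 members with mirVana PARIS, exoRNeasy and miRNeasy advanced stand beside the 7.12%, 4.41% and 3.77% of all miRNAs. When both probes of a miRNA had to be detected, the counts were 3, 0 and 0. The share of all miRNAs under that stricter rule was not counted, so these counts have no comparison.

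mmu-miR-1a-3p, a highly abundant miRNA of adult heart and skeletal muscle, had a mean signal of 408 ± 33.6 (SD, 15 spots) with mirVana PARIS, 157 ± 12.9 (14 spots) with exoRNeasy and 88.2 ± 6.63 (15 spots) with miRNeasy advanced. Spots did not overlap between arrays: they ran from 352 to 472, from 138 to 185 and from 74.6 to 99.1. These signals are not scaled, and the median miRNA also read lower than with mirVana PARIS. Its unscaled log2 ratio was −0.64 with exoRNeasy and −1.63 with miRNeasy advanced. How many other miRNAs separate the arrays in this way was not counted.

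mmu-miR-133a-3p, which in muscle represses serum response factor, read 173 ± 8.39 (15 spots) with mirVana PARIS, 62.9 ± 4.91 (15 spots) with exoRNeasy and 19.8 ± 2.48 (14 spots) with miRNeasy advanced. mmu-miR-133b-3p, whose mature form is nearly the same as that of miR-133a-3p, read 260 ± 15.7 (15 spots), 91.3 ± 4.71 (14 spots) and 29.4 ± 2.93 (14 spots) in that order. For both, mirVana PARIS spots were the highest and miRNeasy advanced spots the lowest, again with no overlap before scaling. The median unscaled log2 ratios of all miRNAs put the arrays in the same order. How many other miRNAs separate them without overlap was not counted. How far the probes tell these closely related miRNAs apart was not tested.

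**Figure D1:**
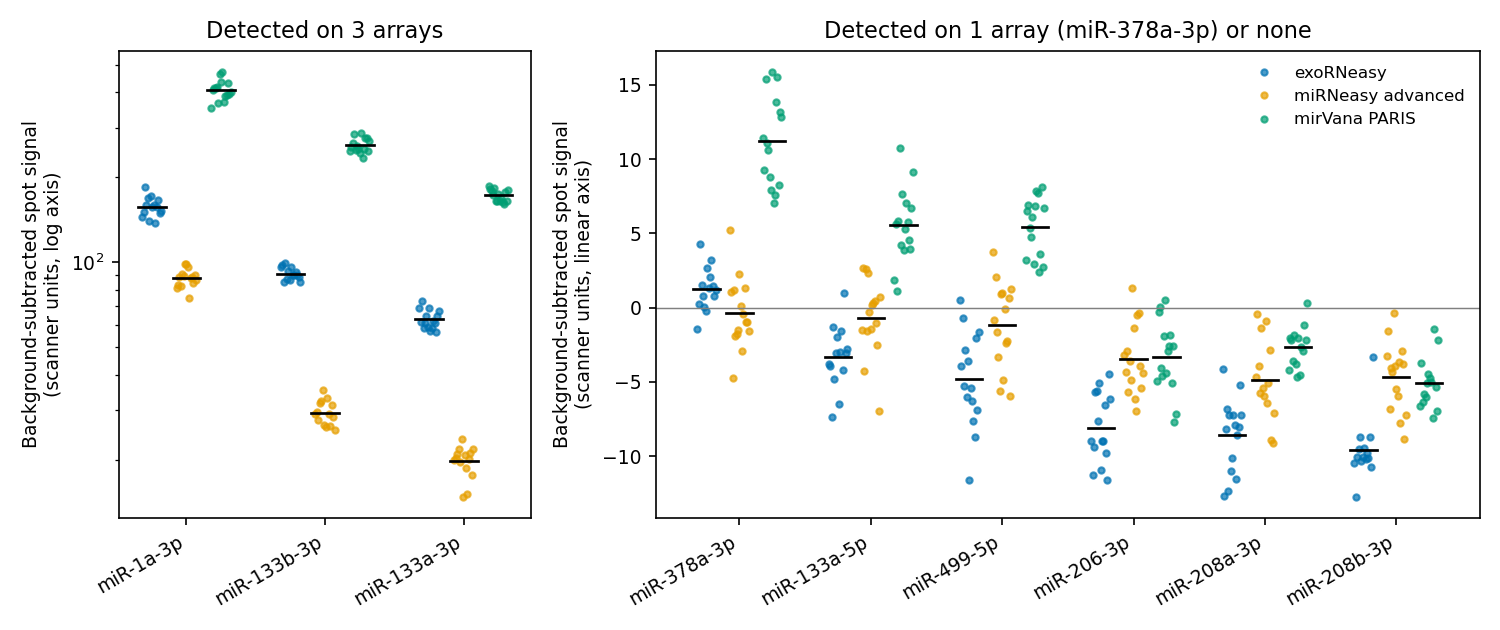
Background-subtracted signal of single spots (scanner units) for the probe used for each of the 9 members, with the 3 arrays side by side; black bars are means over spots, the left axis is logarithmic and the right one linear. Before scaling, the spots of miR-133a-3p, miR-133b-3p and miR-1a-3p separate the arrays without overlap. How many other miRNAs do so was not counted. miR-206-3p, miR-208a-3p and miR-208b-3p average below 0 on every array.

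A set of 3 members read like empty probes, and the rest of the undetected ones did not on every array. miR-206-3p, miR-208a-3p and miR-208b-3p had mean signals from −9.59 to −2.26 over their 6 probes and the 3 arrays, and 0 of 259 spots were positive and significant by the software's flag. These means lay between percentiles 2.95 and 41.8 of the 4197 probes detected on no array. Values below 0 arise where the subtracted background exceeds the spot.

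mmu-miR-499-5p, from the slow myosin gene Myh7b, had mean signals of 5.44 ± 2.01 with mirVana PARIS, −4.82 ± 3.24 with exoRNeasy and −1.16 ± 2.90 with miRNeasy advanced (15 spots each) on its brighter probe. With mirVana PARIS 15 of 15 spots were positive and significant and 0 were well above background. With exoRNeasy 0 and with miRNeasy advanced 1 of 15 were positive and significant. Its mean stood at percentile 98.1 of the never-detected probes with mirVana PARIS, against 38.7 and 63.7, but negative-control spots of the mirVana PARIS array averaged 4.90 ± 2.53 (988 spots). The reading was thus above most empty miRNA probes and within the range of the negative controls.

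miR-133a-5p, the opposite arm of the miR-133a hairpin, had mean signals of 5.56 ± 2.53 (15 spots) with mirVana PARIS, −3.32 ± 2.11 (14 spots) with exoRNeasy and −0.69 ± 2.59 (15 spots) with miRNeasy advanced on its brighter probe. With mirVana PARIS 13 of 15 spots were positive and significant and 1 was well above background. It therefore read low on every array, while the 3p arm of the same hairpin was detected on all.

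miR-378a-3p, embedded in a gene of mitochondrial regulation, read 11.2 ± 3.07 (15 spots) with mirVana PARIS, 1.27 ± 1.48 (14 spots) with exoRNeasy and −0.38 ± 2.38 (15 spots) with miRNeasy advanced. It was at the edge of detection, with 9 of 15 mirVana PARIS spots well above background, and it was not counted when over 0.75 of the spots had to be. The lowest signals that counted as detected were 21.6 with exoRNeasy and 12.2 with miRNeasy advanced, both above the mirVana PARIS reading, so no fold is given.

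The study compared extraction methods on serum, and here the question is how the muscle miRNAs stood between the methods at the same mass of labelled RNA. Before any scaling, the 3 detected muscle miRNAs were brightest with mirVana PARIS. Over exoRNeasy, miR-1a-3p was 2.59-fold, miR-133a-3p 2.75-fold and miR-133b-3p 2.84-fold brighter there. Over miRNeasy advanced they were 4.62-fold, 8.79-fold and 8.86-fold brighter. exoRNeasy over miRNeasy advanced gave 1.78-fold, 3.20-fold and 3.11-fold. All 3 muscle miRNAs were past 2-fold in the first pair of comparisons, and the miR-133 pair alone was in the last.

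Much of this was shared with other miRNAs. Unscaled, 33.8% of the 80 miRNAs detected with both exoRNeasy and mirVana PARIS were called, meaning at least 2-fold apart and over 3 standard errors: 27.5% lower and 6.25% higher with exoRNeasy. Between miRNeasy advanced and mirVana PARIS 80.3% of 71 were called, all lower with miRNeasy advanced. Between exoRNeasy and miRNeasy advanced 43.3% of 67 were called, all higher with exoRNeasy. The median unscaled log2 ratios were −0.64, −1.63 and 0.96. The muscle miRNAs were therefore read after each array was scaled to its own 75th percentile over 106 shared probes, and relative to the median ratio of all miRNAs, which no single scale factor moves.

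Between miRNeasy advanced and mirVana PARIS the miR-133 miRNAs had the lowest scaled ratios of all 71. miR-133b-3p had a log2 ratio of −1.34 ± 0.044 (SE between spots) and miR-133a-3p one of −1.33 ± 0.055, or −1.52 and −1.51 relative to the median miRNA. They were the only 2 miRNAs called lower, 2.82% of the 71, where 14.1% were called higher and 16.9% either way. miR-1a-3p had −0.40 ± 0.042, or −0.58 relative to the median, ranked 12 from the lowest and was not called. Scaled instead to the 75th percentile over all probes, or to the labelling spike-in, miR-1a-3p stood at −2.18 and −2.08 and all 3 muscle miRNAs were called lower, as were 78.9% and 74.6% of all miRNAs. The miR-133 calls did not hold on pixel medians. There 0% of the 71 miRNAs were called lower and 9.86% higher, with normexp and with no background correction alike. With the normexp background model miR-133a-3p stood at −0.31 and miR-133b-3p at −0.59, or −0.68 and −0.96 relative to the median. With no background correction they stood at −0.38 and −0.67, or −0.75 and −1.04 relative to the median. The mean over both probes called all 3 muscle miRNAs lower, with miR-1a-3p at −1.01, beside 8.45% of all miRNAs. It took in dimmer probes that were not detected with miRNeasy advanced.

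Between exoRNeasy and mirVana PARIS the 3 miRNAs had similar ratios on the probes used. Whether they were called turned on the scale and, for miR-1a-3p, also on the probes. Scaled over the shared probes, none was called, and the ratios were −0.41 ± 0.044 for miR-1a-3p, −0.49 ± 0.034 for miR-133a-3p and −0.54 ± 0.030 for miR-133b-3p, at ranks 9, 7 and 6 from the lowest of 80. Relative to the median miRNA they stood at −0.73, −0.82 and −0.86. Of all miRNAs 2.5% were called lower, 25% higher and 27.5% either way. Scaled to the 75th percentile over all probes, the ratios were −1.84, −1.92 and −1.97, and scaled to the labelling spike-in −1.12, −1.21 and −1.26. All 3 were then called lower, beside 56.2% and 17.5% of all miRNAs called lower, and 5% and 8.75% called higher. The mean over both probes called miR-1a-3p alone of the 3, at −1.46, beside 6.25% of all miRNAs called lower. Its dimmer probe was not detected with exoRNeasy.

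Between exoRNeasy and miRNeasy advanced miR-1a-3p stood apart from the miR-133 pair, and none of the 3 was called on the shared-probe scale. miR-133a-3p had a ratio of 0.84 ± 0.059 and miR-133b-3p one of 0.80 ± 0.043, at ranks 61 and 60 from the lowest of 67. miR-1a-3p had −0.0014 ± 0.042, at rank 26. Relative to the median miRNA the values were 0.72, 0.68 and −0.12. Of all miRNAs 2.99% were called higher, 1.49% lower and 4.48% either way. On the scale over all probes miR-133a-3p and miR-133b-3p stood at 1.19 and 1.15, and on the spike-in scale at 1.80 and 1.76, and both were called higher, beside 17.9% and 58.2% of all miRNAs. The mean over both probes also called miR-133a-3p, at 1.44, beside 11.9% of all miRNAs called higher, with its dimmer probe undetected on both arrays. The total gene signal called miR-133b-3p, at 1.06, beside 7.46% of all miRNAs called higher.

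**Figure D2:**
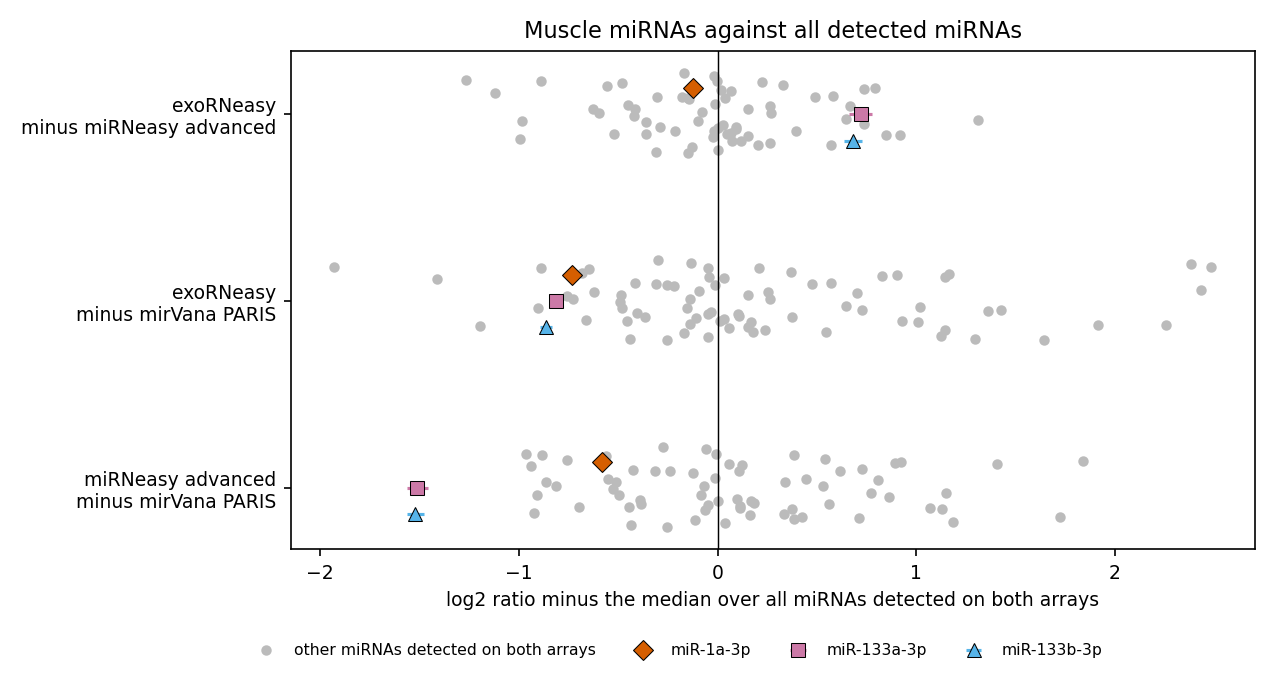
Log2 ratio of each miRNA minus the median over all miRNAs detected on both arrays, for the 3 comparisons; grey points are single miRNAs and error bars on the muscle miRNAs are standard errors between spots. For miRNeasy advanced minus mirVana PARIS the miR-133 pair lies lowest of 71 miRNAs, at −1.51 and −1.52, with miR-1a-3p at −0.58.

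Serum also holds miRNAs from blood cells and liver. The arrays differed in extraction kit. Effects of the kit, of the number of releasing cells and of the miRNA released per cell cannot be told apart here. Of 5 red blood cell miRNAs, 5, 4 and 4 were detected with mirVana PARIS, exoRNeasy and miRNeasy advanced, with summed signals of 19758, 6786 and 5259, mostly miR-451a at 18052, 6245 and 4965. Relative to the median miRNA, the 4 detected on both arrays had list medians of −0.90 for exoRNeasy minus mirVana PARIS and −0.83 for miRNeasy advanced minus mirVana PARIS, with 4 of 4 below it in each, and −0.30 for exoRNeasy minus miRNeasy advanced, with 2 of 4 below. The 3 detected muscle miRNAs had medians of −0.82, −1.51 and 0.68 in the same order. Of 3 liver miRNAs 2 were detected with every kit: miR-122-5p, a marker of hepatocyte damage, stood at −0.14, −0.96 and 0.85, and miR-192-5p at 0.25, −0.39 and 0.66. Of 5 platelet and white blood cell miRNAs, the 3 detected with every kit had medians of 0.24, 0.56 and −0.14, with 1, 0 and 2 of 3 below the median miRNA. The part of these cells in the muscle miRNA values was not tested.

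miR-1a-3p and miR-133a-3p come from the same primary transcripts; in the RefSeq annotation Mir1a-1 and Mir133a-2 both lie in Mir1a-1hg. Their difference within an array does not depend on scaling. The log2 level of miR-1a-3p minus that of miR-133a-3p was 1.24 ± 0.035 with mirVana PARIS, 1.32 ± 0.042 with exoRNeasy and 2.16 ± 0.059 with miRNeasy advanced. Probes differ in how brightly they read a given amount, so these values are no molar ratios, and only their change between arrays is used. exoRNeasy minus mirVana PARIS gave 0.083 ± 0.055, under 3 standard errors. exoRNeasy minus miRNeasy advanced gave −0.84 ± 0.072 (1.80-fold) and miRNeasy advanced minus mirVana PARIS 0.93 ± 0.069 (1.90-fold), both over 3 standard errors and under 2-fold, so neither was called. With miRNeasy advanced, the signal of miR-133a-3p was low relative to miR-1a-3p when set against either other kit.

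miR-1a-3p minus miR-133b-3p gave −0.81 ± 0.060 for exoRNeasy minus miRNeasy advanced and 0.94 ± 0.061 for miRNeasy advanced minus mirVana PARIS. miR-133a-3p minus miR-133b-3p was −0.59 with mirVana PARIS, −0.54 with exoRNeasy and −0.58 with miRNeasy advanced, with no difference between arrays above 0.049 ± 0.045. Because the miR-133 miRNAs are so alike, the second contrast is no independent measure.

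Steps of this size were common among all pairs of miRNAs detected on both arrays, related pairs included. Of 2211 pairs, 24.1% differed between exoRNeasy and miRNeasy advanced by at least as much as miR-1a-3p and miR-133a-3p, and 16.4% were called. Between miRNeasy advanced and mirVana PARIS 35.3% of 2485 pairs did, and 31.3% were called. Between exoRNeasy and mirVana PARIS 94.1% of 3160 did, and 38.9% were called.

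Among miRNAs sharing a primary transcript, the muscle pair had the widest background-subtracted steps on the probes used in both comparisons with miRNeasy advanced, a place it lost under other settings. Of 32 other such pairs listed, 15 had both miRNAs detected with exoRNeasy and miRNeasy advanced. Their absolute log2 steps ran from 0.019 to 0.79 with a median of 0.20, and 0 of 15 reached the 0.84 of the muscle pair. For miRNeasy advanced minus mirVana PARIS 15 pairs had a median of 0.42 and a highest value of 0.80, and 0 of 15 reached 0.93. The nearest was miR-19a-3p with miR-92a-3p of the miR-17-92 cluster, at 0.79 ± 0.093 and 0.80 ± 0.083. The lead of the muscle pair was thus below the spot errors in the first comparison. In the second it passed 1 standard error of either pair but not 3, so neither lead was resolved. On the software's total gene signal, 1 of 15 pairs reached the muscle pair in each of these comparisons. With the mean over all probes 0 and 5 of 15 did, and on uncorrected pixel medians 7 and 15 of 15. For exoRNeasy minus mirVana PARIS 14 of 16 pairs reached it. Several pairs share a miRNA, such as miR-16-5p, listed with miR-15a-5p and with miR-15b-5p. A probe does not tell which transcript a mature miRNA came from, so pairs may hold miRNA from other transcripts as well. miR-133b-3p with miR-206-3p gave no value because miR-206-3p was not detected.

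**Figure D3:**
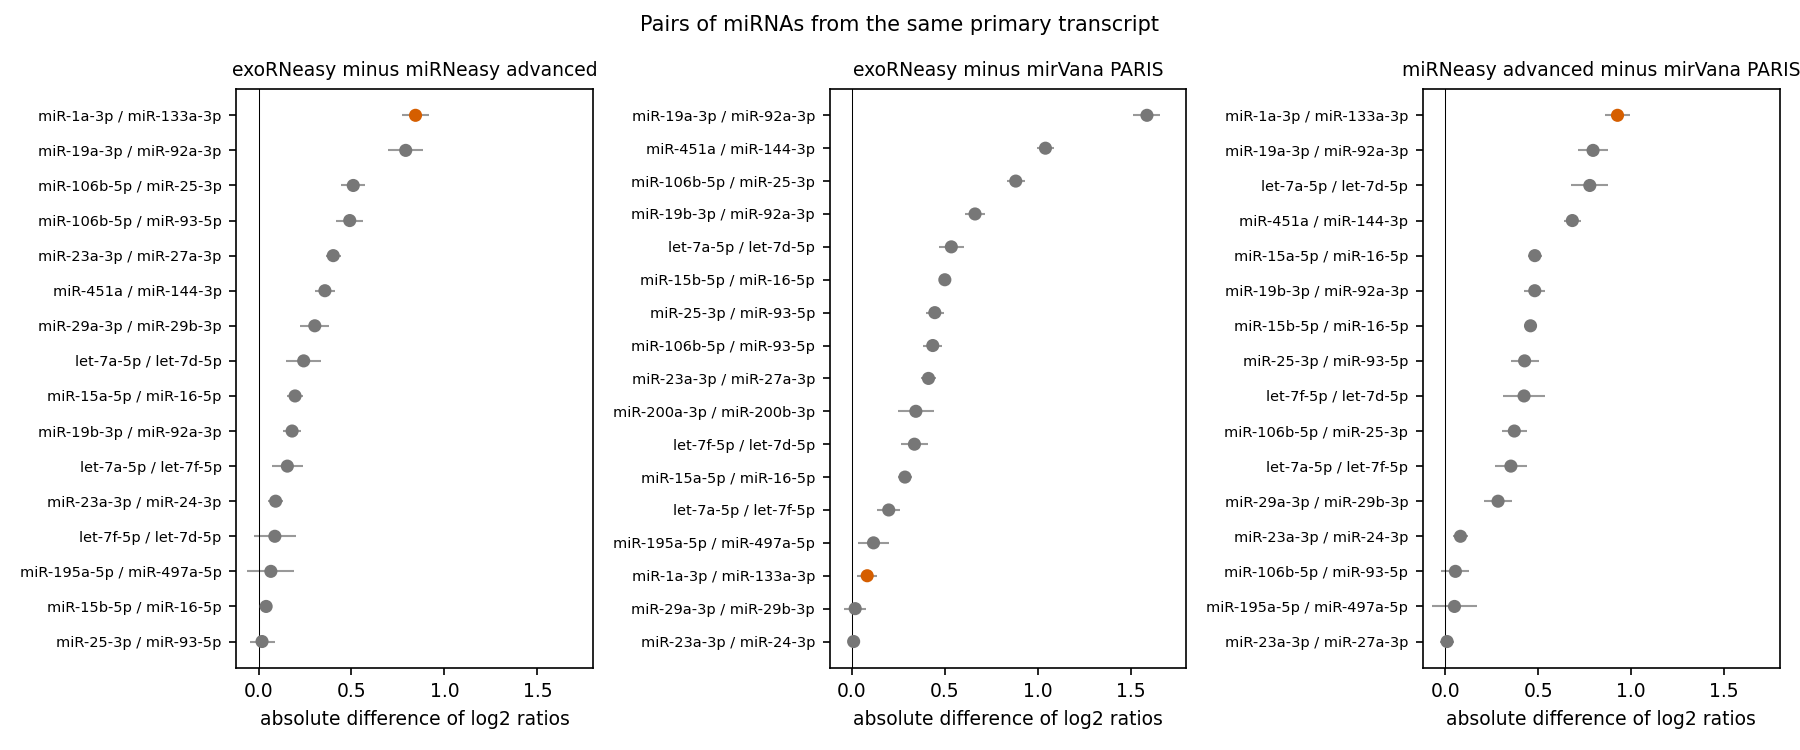
Absolute difference between the log2 ratios of 2 miRNAs from the same primary transcript, in each of the 3 comparisons of arrays; bars are standard errors between spots and the coloured point is miR-1a-3p with miR-133a-3p. The muscle pair is the highest, at 0.84 and 0.93, in the comparisons that include miRNeasy advanced, and has 2 pairs below its 0.083 in the other.

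The step between miR-1a-3p and miR-133a-3p depended on the background treatment. On pixel medians with normexp it was −0.11 for exoRNeasy minus miRNeasy advanced and −0.079 for miRNeasy advanced minus mirVana PARIS, against −0.84 and 0.93 above, and 9 and 12 of 15 other pairs then reached it. With no correction it was −0.17 and −0.013. For miR-133a-3p with miRNeasy advanced the mean pixel median was 65.8, where probes detected on no array had 43.6. For miR-1a-3p it was 133. In the same order these values were 117, 50.6 and 210 with exoRNeasy, and 220, 44.8 and 451 with mirVana PARIS. A step on pixel medians less those of never-detected probes was not computed. Leaving background in, or adding an offset, draws log2 ratios of dim spots toward 0. An alternative chosen after the data were seen subtracted the median signal of never-detected probes, −3.55 with exoRNeasy, −1.94 with miRNeasy advanced and −1.82 with mirVana PARIS. The steps were then −0.79 and 0.83, and 0 of 15 other pairs reached either. Subtracting −1.94 changes little in a miR-133a-3p signal of 19.8 with miRNeasy advanced, so this setting could move the steps little. It is no check on the pixel-median values.

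**Figure D4:**
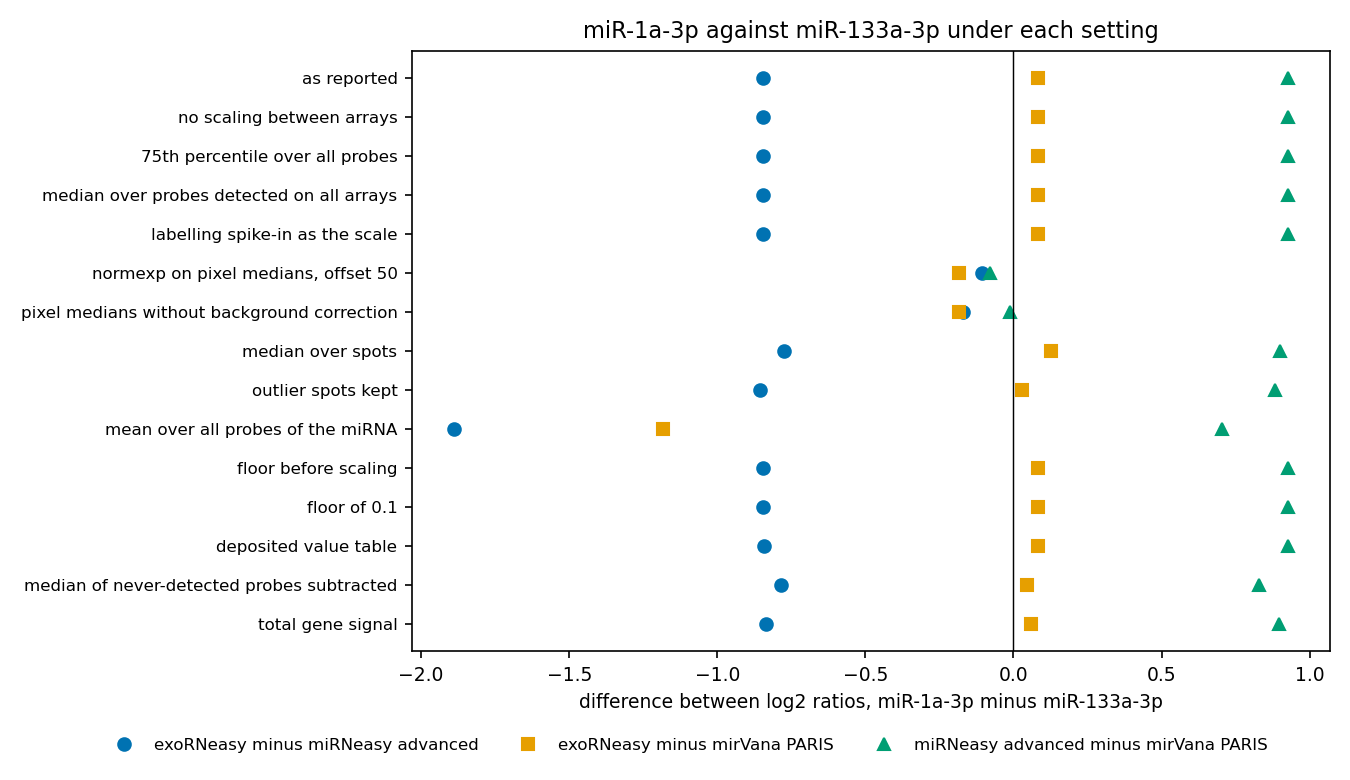
Difference between the log2 ratios of miR-1a-3p and miR-133a-3p (x axis) in the 3 comparisons of arrays under each processing setting (y axis). On pixel medians the values lie between −0.18 and −0.013, and with the mean over both probes, which takes in dimmer probes not above background, exoRNeasy minus miRNeasy advanced reaches −1.89, against −0.84 as reported.

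The dimmer probe of each detected miRNA was read separately. For miR-1a-3p it gave 58.5 ± 5.78 with mirVana PARIS, 5.73 ± 2.48 with exoRNeasy and 5.90 ± 2.38 with miRNeasy advanced (15 spots each), and was detected with mirVana PARIS alone. Set against the lowest level that counted as detected on the other array, it was at least 2.70-fold brighter with mirVana PARIS than with exoRNeasy and at least 4.79-fold brighter than with miRNeasy advanced before scaling, or at least 1.38-fold and 1.37-fold after. With mirVana PARIS its signal was 14.4% of that of the brighter probe. Its other readings lay within the negative-control spots, which averaged 5.26 ± 3.53 with exoRNeasy and 4.88 ± 2.65 with miRNeasy advanced.

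For miR-133b-3p the dimmer probe gave 38.7 ± 4.85, 15.3 ± 3.06 and 4.14 ± 2.55 in the same order of kits, with mirVana PARIS at 14.9% of the brighter one. For miR-133a-3p it gave 21.9 ± 2.96, 10.9 ± 2.38 and 1.70 ± 1.95, with mirVana PARIS at 12.7%. Both were detected with mirVana PARIS alone. Unscaled, the dimmer probe was at least 3.16-fold brighter with mirVana PARIS than with miRNeasy advanced for miR-133b-3p and at least 1.78-fold for miR-133a-3p; scaled, no bound above 1-fold could be given. Readings with the other kits were not well above background, so no order is drawn from them. With exoRNeasy 15 of 15 spots of each were positive and significant by the software's flag. With the mean over both probes, the step between miR-1a-3p and miR-133a-3p became −1.89 for exoRNeasy minus miRNeasy advanced and −1.18 for exoRNeasy minus mirVana PARIS; both values take in dimmer probes that were not detected with exoRNeasy or miRNeasy advanced, and neither is a measured size.

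**Figure D5:**
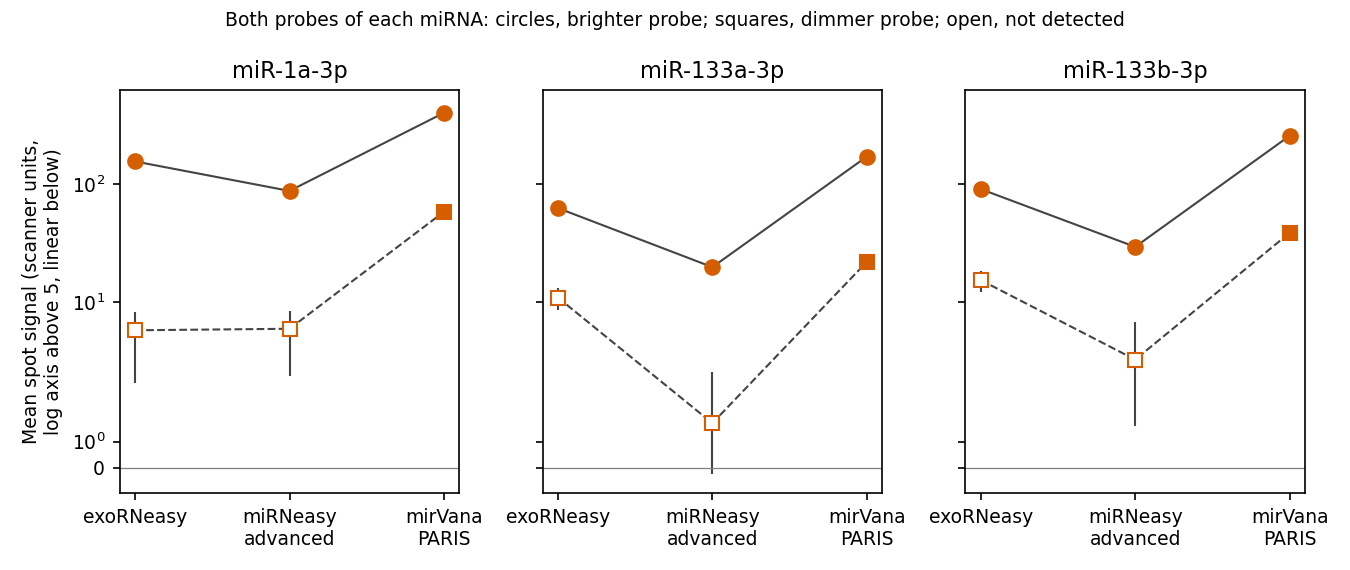
Mean signal of the brighter probe (circles, solid line) and the dimmer probe (squares, dashed line) of miR-133a-3p, miR-133b-3p and miR-1a-3p on each array; bars are SD between spots, open symbols were not detected, and the y axis is logarithmic above 5 and linear below. The dimmer miR-1a-3p probe reads 5.73 with exoRNeasy, 5.90 with miRNeasy advanced and 58.5 with mirVana PARIS.

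Likeness of profile was measured as the Euclidean distance between log2 levels centred over the 3 arrays, among the 67 miRNAs detected on all. The 5 nearest to miR-1a-3p were miR-15a-5p and miR-20b-5p, both at 0.12, miR-486a-5p and miR-6366, both at 0.18, and miR-20a-5p at 0.19, where the median distance was 0.64. Its transcript partner miR-133a-3p ranked 39 of 66 at 0.73. The nearest to miR-133a-3p was miR-133b-3p at 0.037, followed by miR-93-5p at 0.45, miR-30e-5p at 0.50, miR-122-5p at 0.51 and miR-16-5p at 0.53. miR-1a-3p ranked 13 of 66 from it. With 3 arrays a profile has few free values, and these distances only describe the arrays.

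Of 11 miRNAs that striated muscle shares with other tissues, 10, 8 and 6 were detected with mirVana PARIS, exoRNeasy and miRNeasy advanced. For miRNeasy advanced minus mirVana PARIS, 0 of the 6 detected on both were called, against 16.9% of all miRNAs, and their median was −0.19 relative to the median miRNA. miR-486a-5p, made in muscle and in red blood cells, stood at −0.76, miR-30a-5p at −0.53, miR-22-3p at −0.25 and miR-195a-5p at 0.035. For exoRNeasy minus mirVana PARIS 2 of 8 were called, both higher, where 25% of all miRNAs were called higher: miR-26a-5p at a scaled log2 ratio of 1.45 ± 0.075 and miR-30c-5p at 1.05 ± 0.083. The smooth muscle miRNAs miR-143 and miR-145a, 4 arms in all, were detected with no kit. Of all miRNAs, 7.12%, 4.41% and 3.77% were detected with mirVana PARIS, exoRNeasy and miRNeasy advanced.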

How the data were processed

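Spot intensity in linear scanner units is what the authors deposited, made, per the file headers, with version 11.5.1.1 of Agilent Feature Extraction (11.5 per the submitters' processing notes), background-subtracted with spatial detrending and not normalised between arrays. The 3 arrays shared a slide and a scan. The deposited value table gives the same intensities within 0.50%, neither log-transformed nor centred, with medians of −2.77 (exoRNeasy), −1.51 (miRNeasy advanced) and −1.44 (mirVana PARIS).

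Spots with outlier flags were left out, log2 signals were averaged per probe, arrays were scaled to the 75th percentile over shared detected probes (log2 7.05, 6.21 and 8.02), and then a floor of 1 was set. A miRNA took the probe detected on most arrays, then the brightest. Having 1 array per kit limits the precision and allowed no test. Averaging over spots, ratios and calls were tested on simulated spots, without scaling between arrays and with the flags of the real arrays. Scaling, detection and background treatment were therefore not tested in this way. normexp came from limma 3.58.1. Text names the 9 members, listed miRNAs detected on any array, pairs from a list of shared transcripts and the 5 nearest profiles. Members and lists were chosen with earlier results of these data known.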

Additional observations from a re-analysis of the deposited data

How the results depend on the processing

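The difference between the log2 ratios of miR-1a-3p and miR-133a-3p was −0.84 for exoRNeasy minus miRNeasy advanced, 0.083 for exoRNeasy minus mirVana PARIS and 0.93 for miRNeasy advanced minus mirVana PARIS. On pixel medians corrected by normexp (offset 50) it was −0.11, −0.18 and −0.079, and without background correction −0.17, −0.18 and −0.013; both draw dim signals together by construction. With the mean over both probes it was −1.89 and −1.18 in the first 2, with dimmer probes included that were not detected with exoRNeasy or miRNeasy advanced. With every probe required, 0 members were detected with exoRNeasy and 0 with miRNeasy advanced. The share of all miRNAs under that rule was not counted. Of 42 values of the step under alternatives, 18 were identical by construction, since scale factors and floors do not touch it. These say nothing on stability. Of the other 24, 16 moved by less than the spread between spots. Most of those 16 rest on the same background-subtracted signals, the deposited value table among them, so they too say little on stability. The 8 that moved were all on pixel medians or the mean over both probes. The ratios of single miRNAs moved by more than the spread between spots in 54 of 126 values. Their sizes and calls turned on the scale, the background treatment and the probes taken. Over 14 alternatives, miRNeasy advanced minus mirVana PARIS ran from −3.14 to −0.31 for miR-133a-3p, from −3.15 to −0.59 for miR-133b-3p and from −2.21 to −0.37 for miR-1a-3p. exoRNeasy minus mirVana PARIS ran from −1.92 to −0.18, from −1.97 to −0.32 and from −1.84 to −0.37, and exoRNeasy minus miRNeasy advanced from 0.13 to 1.80, from 0.27 to 1.76 and from −0.45 to 0.95. The dimmer probes in place of the brighter ones gave no value, since they were detected with mirVana PARIS alone. No paired analysis was possible because each kit has 1 array.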

Other observations

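Of 14 opposite arms and relatives of the muscle miRNAs on the array, 2 were detected with mirVana PARIS, where 7.12% of all miRNAs were. With exoRNeasy and miRNeasy advanced 0 were detected, beside 4.41% and 3.77% of all miRNAs. The 2 detected were both relatives of miR-378a. miR-378b read 37.4 ± 5.35 with mirVana PARIS, 20.2 ± 2.01 with exoRNeasy and 6.80 ± 2.91 with miRNeasy advanced (SD between spots), and miR-378d 36.0 ± 3.23, 17.7 ± 2.56 and 6.32 ± 2.65. Their readings with exoRNeasy and miRNeasy advanced did not count as detected, so no order is drawn from them. The 5p arms of the miR-1a hairpins, miR-1a-1-5p and miR-1a-2-5p, read from 0.56 to 3.33 over the 3 arrays and were not detected, while miR-1a-3p was detected with every kit.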
